A study of Mus musculus with 30 samples.

Results

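The genes described here encode the stored weapons of the neutrophil: the calprotectin subunits S100a8 and S100a9, the specific-granule proteins Ngp, Camp and Ltf, and the azurophil-granule enzymes Mpo, Elane and Prtn3. They are 8 of the 16358 genes that a probe of the array names, chosen by name; 9 probes cover them, because Ltf has a pair, and the probe with the brighter Cy5 signal stands for each gene. The probes used were A_51_P256827 (S100a8), A_51_P402943 (S100a9), A_52_P429450 (Ngp), A_51_P180423 (Camp), A_52_P15388 (Ltf), A_51_P317460 (Mpo), A_51_P144551 (Elane) and A_51_P209818 (Prtn3). The cells are not neutrophils but dendritic cells grown from mouse bone marrow, measured on 30 arrays in 6 groups of 5 biological replicates. Control cells came from C57BL/6 mice that carry CD11c-Cre, and knockout (KO) cells from C57BL/6 mice that carry CD11c-Cre with IRF-4 flox/flox alleles, so both genotypes express the Cre recombinase. Cells of each genotype were left unstimulated or were exposed for 6 or 24 hours to LPS, a bacterial cell-wall component that signals through Tlr4. Magnetic beads were used afterwards to enrich CD11c+ cells, from which the RNA came. The CD11c promoter drives the Cre, so a cell that never turned that promoter on keeps its Irf4. The labels do not say what separates the replicates of a group, animals or dishes; p-values therefore cover only the scatter among these samples, which may be technical.

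Neutrophils make their granules in waves. Azurophil granules form first, in promyelocytes, and hold Mpo (myeloperoxidase, which makes hypochlorous acid), Elane (neutrophil elastase) and Prtn3 (proteinase 3). Specific granules form later, in myelocytes and metamyelocytes, and hold Ltf (lactoferrin, an iron-binding protein), Camp (cathelicidin, the precursor of an antimicrobial peptide) and Ngp (neutrophilic granule protein, of the cathelicidin and cystatin superfamily). C/EBP factors drive many of these genes, C/EBP-epsilon those of the specific granules in particular. S100a8 and S100a9 form calprotectin, a cytosolic complex that binds calcium, zinc and manganese; it is very abundant in neutrophils, is also made by monocytes, and signals to other cells through Tlr4 when released. Dendritic cell cultures start from whole marrow, which is rich in granulocytes and their precursors.

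The promoters of the calprotectin pair and of Ngp and Ltf are shown because the members of each pair moved together over the arrays, as described further on. Each runs from 250 bases before to 50 after the RefSeq start of the gene in GRCm38.p6, printed 5′ to 3′ along the gene. Capitals mark matches, on either strand, to 6 motifs: TTGCNNAA (C/EBP), GAGGAAG (PU.1), GGAANNGAA (an ETS-IRF composite), GAAANNGAA (interferon response), GGGNNTTCC (NF-kB) and TGTGGT (RUNX). The S100a8 window lies at chr3:90668821-90669120 on the plus strand and the S100a9 window at chr3:90695672-90695971 on the minus strand. The Ngp window lies at chr9:110419558-110419857 and the Ltf window at chr9:111019042-111019341, both on the plus strand.
S100a8: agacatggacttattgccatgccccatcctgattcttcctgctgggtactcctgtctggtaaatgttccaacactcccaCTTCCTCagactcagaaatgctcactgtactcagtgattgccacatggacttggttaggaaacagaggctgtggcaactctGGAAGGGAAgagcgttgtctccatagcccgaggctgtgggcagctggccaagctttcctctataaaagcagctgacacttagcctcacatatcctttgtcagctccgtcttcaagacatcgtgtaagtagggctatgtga
S100a9: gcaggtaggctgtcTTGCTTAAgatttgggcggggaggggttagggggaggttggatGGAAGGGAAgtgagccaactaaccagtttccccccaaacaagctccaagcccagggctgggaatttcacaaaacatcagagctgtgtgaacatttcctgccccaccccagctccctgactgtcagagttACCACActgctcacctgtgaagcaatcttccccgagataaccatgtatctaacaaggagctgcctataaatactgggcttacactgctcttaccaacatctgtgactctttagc
Ngp: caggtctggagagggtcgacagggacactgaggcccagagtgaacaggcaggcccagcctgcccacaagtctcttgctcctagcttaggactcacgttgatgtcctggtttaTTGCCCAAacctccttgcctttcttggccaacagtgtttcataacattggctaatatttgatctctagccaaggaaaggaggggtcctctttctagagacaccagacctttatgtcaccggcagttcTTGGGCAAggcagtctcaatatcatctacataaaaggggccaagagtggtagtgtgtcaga
Ltf: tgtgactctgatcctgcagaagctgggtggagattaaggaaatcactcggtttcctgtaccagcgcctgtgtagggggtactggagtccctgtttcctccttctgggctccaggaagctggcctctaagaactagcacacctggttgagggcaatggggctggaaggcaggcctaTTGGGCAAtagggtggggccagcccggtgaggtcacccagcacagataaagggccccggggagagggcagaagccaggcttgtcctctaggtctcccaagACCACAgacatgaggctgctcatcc

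Both calprotectin windows held the same 9 letters, GGAAGGGAA, which match those searched for an ETS-IRF composite, a type of site IRF4 can bind with PU.1. Only these 9 letters were searched, the base after them is g in both windows, and binding was not tested. Of all 32851 RefSeq windows of the same length, 8.24% held a match to the searched ETS-IRF letters. The C/EBP letters occurred in 3 of the 8 members, S100a9, Ngp and Ltf, and in 10.8% of all windows. The Ngp window held them at positions -138 and -11 from the start and the Ltf window at -75, counted to the leftmost base. These 3 matches are the same octamer, TTGCCCAA, which reads TTGGGCAA at -11 in Ngp and in Ltf, where the match is on the opposite strand. The PU.1 letters occurred in S100a8, Mpo, Elane and Prtn3, which is every azurophil member, and in 13.6% of all windows. RUNX letters were found in S100a9 and Ltf (16.8% of all windows). No interferon-response or NF-kB match was found in any of the 8 windows, against 8.56% and 5.82% of all windows, and the Camp window held no match to any of the 6 motifs. GGAANNGAA and GAAANNGAA can share bases; in these windows no matches overlapped one another. A match describes letters only.

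Values are log2 ratios of the sample (Cy5) to a common universal mouse reference RNA (Cy3), so 1 unit is a 2-fold change, 0 is the level of the reference, and each probe is compared only with itself. Tests covered the 11242 genes whose probe stood well above background in Cy5 throughout 1 or more groups, that is on each of the 5 arrays. S100a8 and S100a9 were above background on 30 of 30 arrays. Mpo was above it on 29, Camp on 23, Ltf on 17, Ngp on 15 and Prtn3 on 15. Elane was above background on 0 of 30 arrays. Elane and Prtn3 were therefore not tested, and Ngp, Camp and Ltf passed only through the groups in which they were high. In bulk RNA, fewer cells of a type and less RNA per cell cannot be told apart.

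The arrays were comparable in brightness, with median Cy5 signals of 101 to 151, and 44.8% to 66.1% of probes were well above background on each. Irf4, the targeted gene, had ratios of 1.16 to 2.68 on the control arrays and -2.51 to 0.62 on the KO arrays. All 9 tested dendritic cell markers, among them Itgax (CD11c) and the MHC class II gene H2-Aa, were above background on all 30 arrays. A pair of arrays, control replicate 3 at LPS 6 h and control replicate 2 at LPS 24 h, stood apart: they shared a slide that held no other array and was scanned on a later day. Their mean ratio over 5 LPS response genes was 0.12 and 0.26, beside 3.79 to 5.16 and 3.32 to 3.95 in the other 4 arrays of their groups, a level near that of unstimulated cells (-0.21 to 0.87). The called genotype differences of the members after LPS are given with and without them. Unless stated, all other values that use control cells after LPS include them. No slide held both genotypes at the same treatment.

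The calprotectin genes were above background in every sample; S100a8 passed as lower in KO cells at LPS 6 h and S100a9 at LPS 24 h, and the other differences by genotype, all below 0, did not pass. S100a8 ratios in unstimulated control cells were 4.28, 1.50, 2.05, 5.42 and 5.78 in replicates 1 to 5, and in unstimulated KO cells 1.51, -0.07, 0.19, 0.78 and 4.51. At LPS 6 h they were 4.18, 2.57, 4.61, 5.98 and 6.50 in control cells, and 1.08, 0.31, 0.32, 2.67 and 3.55 in KO cells. At LPS 24 h they were 2.80, 5.64, 2.07, 5.97 and 4.44 in control cells, and 0.50, 0.53, 0.45, 3.12 and 3.21 in KO cells. The groups overlapped at each treatment, because some KO arrays, mainly of replicates 4 and 5, reached the lower control arrays. Replicates 4 and 5 averaged 1.70 to 2.99 above replicates 1 to 3 in all 6 groups.

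The mean S100a8 ratio at LPS 6 h was 4.77 ± 1.55 in control and 1.59 ± 1.46 in KO cells (SD, n = 5 each). This difference of -3.18 ± 1.00 (SE), a 9.07-fold lower level in KO cells, passed limma's test (adjusted p = 0.0362). It was -2.42 ± 1.00 unstimulated (adjusted p = 0.110) and -2.62 ± 1.00 at LPS 24 h (adjusted p = 0.0792), neither past the threshold of 0.05. Within replicates 1 to 3 the differences were -2.06, -3.22 and -3.01 at the 3 treatments, and within replicates 4 and 5 they were -2.96, -3.13 and -2.04. The call at LPS 6 h was narrow: it ended with local backgrounds as scanned (adjusted p = 0.0673), with no filter on dim probes (0.0502), with slide as a random block (0.0707) and when any one of 6 arrays was left out (0.0513 to 0.0991), namely KO replicate 1, 2 or 3 or control replicate 3, 4 or 5. Without both arrays of the later slide it was -3.22 (adjusted p = 0.0472).

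S100a9 was high on every control array and lower, with a wide spread, on the KO arrays. The control ratios were 6.46, 5.44, 5.92, 6.58 and 6.58 unstimulated, 6.59, 6.31, 6.02, 6.56 and 7.05 at LPS 6 h, and 6.46, 6.63, 6.00, 6.74 and 6.62 at LPS 24 h. The KO ratios were 5.10, 2.59, 2.81, 4.18 and 6.77 unstimulated, 4.38, 3.05, 3.1, 6.21 and 6.54 at LPS 6 h, and 2.72, 1.62, 1.58, 3.97 and 5.41 at LPS 24 h. Only at LPS 24 h did the KO arrays lie wholly below the control arrays. There S100a9 was 10.8-fold lower in KO cells, a difference of -3.43 ± 0.73 (SE; adjusted p = 0.00177, limma), lower in 5 of 5 KO arrays than the control mean. The differences of -1.91 unstimulated (adjusted p = 0.0819) and -1.85 at LPS 6 h (adjusted p = 0.101) did not pass. Without the pair of later arrays the LPS 24 h difference was -3.39 (adjusted p = 0.00483). Within replicates 1 to 3 it was -4.39 and within replicates 4 and 5 it was -1.99, which did not pass.

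The S100a9 ratio understates how far its sample signal moved. Its Cy5 signal minus local background ran from 138 to 129879.5 over the arrays, while its Cy3 signal, from the one reference RNA, ran from 12.0 to 730.5 and rose with Cy5. On the 11 arrays with Cy5 above 20000 the Cy3 signal was 0.405% to 0.847% of Cy5. Among 26374 other spots that bright, 705 spots of 61 probes had a Cy3 signal under 1% of Cy5. S100a8 showed no such rise: its Cy3 signal was 153 to 242 while its Cy5 signal ran from 149.5 to 22452.5. Measured on Cy5 alone after quantile normalization, the S100a9 difference was -3.86 unstimulated (adjusted p = 0.0259), -4.45 at LPS 6 h (adjusted p = 0.0120) and -5.76 at LPS 24 h (adjusted p = 0.00120). The scanner software's own log ratios instead gave -0.36 unstimulated, 0.49 at LPS 6 h and -1.45 at LPS 24 h (adjusted p = 0.0346), so of the 3 treatments only LPS 24 h was called on each of these scales. What raised the reference channel was not tested.

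**Figure D1:**
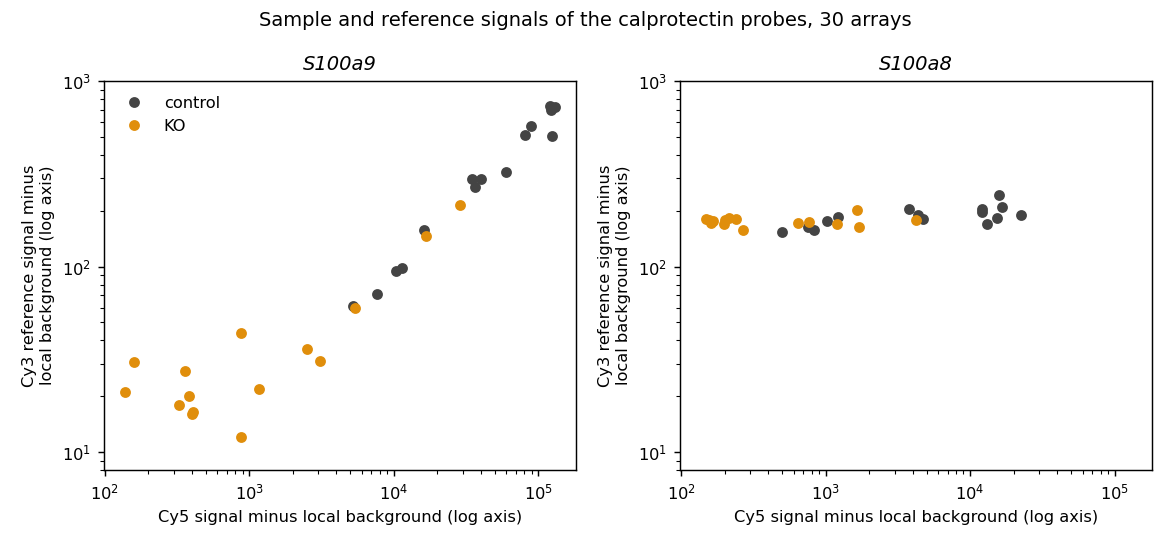
Cy3 reference signal against Cy5 sample signal, both minus local background on log axes, for the S100a9 and S100a8 probes on 30 arrays (1 point per array, control dark and KO orange). The S100a9 reference signal rises to 730.5 with Cy5, while that of S100a8 stays between 153 and 242.

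Ngp and Ltf, both specific-granule genes, were low in control cells and at or near background in KO cells. Ltf ratios were 1.97, 1.23, 1.80, 2.79 and 1.88 in unstimulated control cells, 1.54, 0.95, 3.13, 3.04 and 2.86 at LPS 6 h, and 1.21, 4.05, 0.63, 3.32 and 2.27 at LPS 24 h. On the 15 KO arrays they ran from 0.03 to 0.64. Unstimulated and at LPS 6 h the KO arrays all lay below the control arrays, and at LPS 24 h the lowest control array, 0.63, was still above the highest KO array, 0.48. In Cy5 signal minus background, Ltf was 53.0 to 2624.5 on control and 8.50 to 43.5 on KO arrays; the probe was well above background on 15 of 15 control arrays and on 2 KO arrays, both unstimulated.

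Ltf was 2.80-fold lower in unstimulated KO than control cells, a difference of -1.48 ± 0.45 (SE; adjusted p = 0.0273, limma). With this probe no KO array was well above background at LPS 6 h and 24 h. At LPS 6 h the reduction was at least 3.76-fold on the dye-normalised Cy5 channel, taking each KO array at no less than the dimmest detected probe. At LPS 24 h the ratios gave a 4.17-fold lower level, and no bound is given because the Cy5 channel put it above that measured fold. The fitted differences were -1.99 (adjusted p = 0.00402) and -2.06 (adjusted p = 0.00237). Without the later pair of arrays, which held the highest Ltf ratio of each group, these were -1.78 (adjusted p = 0.00345) and -1.62 (adjusted p = 0.00761). The bound at LPS 6 h is of a group mean that includes the later array, and it need not hold without it. The second Ltf probe had means of 1.59, 2.02 and 2.04 in the 3 control groups and of 0.37, 0.16 and 0.22 in the KO groups, the same pattern. That probe was well above background on 2, 1 and 1 of 5 KO arrays at the 3 treatments. Within replicates 1 to 3 the differences were -1.20, -1.63 and -1.85 at the 3 treatments, and within replicates 4 and 5 they were -1.92, -2.52 and -2.38. The unstimulated call ended under 3 of 15 alternatives to the main fit (limma, adjusted p up to 0.279). Among them were backgrounds as scanned (0.130) and median centring (0.0814). The call also ended when any one of 5 arrays was left out (0.0503 to 0.0900), namely KO replicate 1, 3 or 5 or control replicate 1 or 4.

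Ngp showed the same split between genotypes. Its control ratios were 0.72, 0.32, 0.69, 1.56 and 0.71 unstimulated, 0.87, 0.91, 2.35, 1.78 and 1.55 at LPS 6 h, and 0.73, 3.35, 0.60, 1.91 and 1.14 at LPS 24 h. KO ratios were -0.20 to 0.32 over 15 arrays, with 1 array well above background. Control and KO arrays did not overlap at any treatment. Ngp was at least 2.56-fold lower in KO cells at LPS 6 h (fitted difference -1.54 ± 0.34, adjusted p = 0.00326) and at least 2.65-fold lower at 24 h (fitted difference -1.45 ± 0.34, adjusted p = 0.00434). Without the later pair of arrays the fitted differences were -1.33 (adjusted p = 0.000264) and -0.997 (adjusted p = 0.00396). Both bounds are of means over 5 arrays that include this pair, and they need not hold without it. Fitted on the compared groups alone, the LPS 24 h call ended (adjusted p = 0.0697). Unstimulated, the difference of -0.82 did not pass (adjusted p = 0.118), although an exact permutation test of the 5 arrays against 5 gave p = 0.00794, the smallest it can give.

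Over the 30 arrays the correlation of Ngp with Ltf was r = 0.940, and no other tested gene was closer to either. These points share slides, groups and a low signal on the KO arrays; with group means removed r was 0.891. The next closest to Ngp was Prg2 (r = 0.923), the major basic protein of eosinophil granules, and then Chfr (0.902). The next closest to Ltf were Vat1l (0.930) and Prg2 (0.919).

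No slide allows a genotype difference to be read within it. With slide as a random block the calls of Ngp and Ltf held at LPS 6 h and 24 h (adjusted p = 0.00618 to 0.00846). With slide as a fixed term, which ties the genotypes only through chains of slides, the LPS 24 h differences of 3 genes turned sign, Ltf to 0.62 (adjusted p = 0.572), Camp to 4.47 (adjusted p = 0.0332) and S100a8 to 4.71 (adjusted p = 0.144). That fit also ended the calls of Ngp at LPS 6 h (adjusted p = 0.0672) and 24 h (0.647), S100a8 at LPS 6 h (0.0666) and S100a9 at LPS 24 h (0.948). The calls were refitted with limma under 17 alternatives, slide as a fixed term included. Ngp lost its call in 2 at LPS 6 h (adjusted p up to 0.07) and in 3 at LPS 24 h (up to 0.647). Ltf lost its call in 1 at LPS 6 h (0.108). At LPS 24 h Ltf lost it in 1 and turned sign in 1 (up to 0.572). Genotype and slide cannot be fully told apart.

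**Figure D2:**
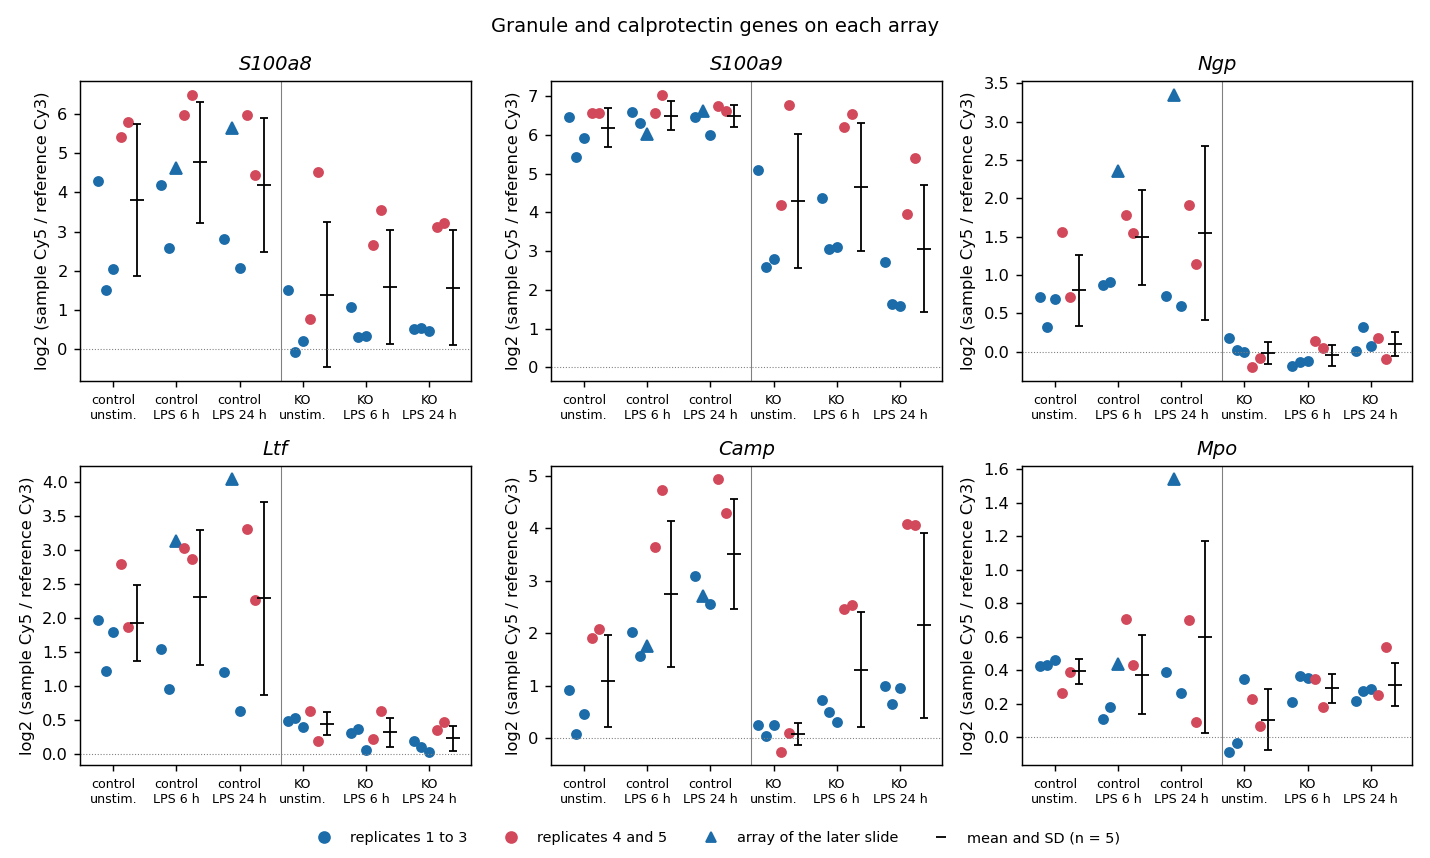
Log2 ratio of sample to reference for the 6 tested genes on each array of the 6 groups, with replicates 1 to 3 in blue, replicates 4 and 5 in red, the later slide's arrays as triangles, and the mean and SD (n = 5) at the right of each group. KO arrays of Ngp and Ltf stay at or below 0.64, while Camp rises to 4.08 in KO replicates 4 and 5 at LPS 24 h.

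Camp behaved differently from the other specific-granule members: it was higher after LPS in both genotypes. In control cells it was 0.92, 0.07, 0.47, 1.91 and 2.07 unstimulated, 2.02, 1.56, 1.76, 3.65 and 4.74 at LPS 6 h, and 3.09, 2.70, 2.55, 4.94 and 4.30 at LPS 24 h. In KO cells it was -0.26 to 0.26 unstimulated, with 0 of 5 arrays well above background, then 0.73, 0.49, 0.31, 2.45 and 2.54 at LPS 6 h and 0.99, 0.65, 0.96, 4.08 and 4.07 at LPS 24 h. Every array at 24 h lay above every unstimulated array of its genotype. That includes control replicate 2 of the later slide, at 2.70, whose LPS response genes were near the unstimulated level. What raised Camp there was not tested. Replicates 4 and 5 were both above replicates 1 to 3 in 5 of 6 groups, the exception being unstimulated KO cells.

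At 24 h Camp was 5.38-fold higher than unstimulated in control cells (difference 2.43 ± 0.70 SE, adjusted p = 0.0220, limma). In KO cells the mean of the 5 arrays was at least 4.00-fold higher (fitted difference 2.08 ± 0.70, limma, adjusted p = 0.0388), a bound that does not hold for each array. The size in KO cells differed between replicates: 0.69 within replicates 1 to 3 (adjusted p = 0.0308) and 4.16 within replicates 4 and 5 (adjusted p = 1.18e-05). In control cells these were 2.29 and 2.62. Leaving out 1 array ended the control call for LPS replicate 4 or 5 or unstimulated replicate 2 or 3 (adjusted p = 0.0516 to 0.0679), and the KO call for LPS replicate 4 or 5 or any unstimulated replicate (0.0592 to 0.140). The KO call also ended with slide as a random block (adjusted p = 0.0513), with the compared groups fitted alone (0.0532) and with no filter (0.0533). On Cy5 alone the control difference was 2.00 (adjusted p = 0.0560), and with slide as a fixed term it was -0.89 (adjusted p = 0.584).

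At LPS 6 h Camp was already 1.66 above unstimulated in control cells (adjusted p = 0.131) and 1.23 above in KO cells (adjusted p = 0.199). Over all genes tested, the same replicate numbers of unstimulated and LPS 6 h KO cells deviated together, every pair over 0.1 in correlation (lowest 0.109). With replicate as a block the KO difference passed (limma, adjusted p = 0.0164), but that block also covers groups whose arrays did not deviate together. Camp itself did not pair so in KO cells: replicates 4 and 5 minus 1 to 3 was 1.99 at LPS 6 h and -0.26 unstimulated. Within the one slide that held both control groups, LPS 6 h replicates 1 and 2 minus unstimulated replicates 4 and 5 was -0.20. Within the slide that held both KO groups, LPS 6 h replicate 1 was 0.70 above unstimulated replicates 3 to 5. KO minus control differences of Camp were -1.01, -1.44 and -1.36 at the 3 treatments, and none passed (adjusted p = 0.370, 0.195 and 0.210). Within replicates 4 and 5 they were -2.07, -1.70 and -0.54, and within replicates 1 to 3 they were -0.31, -1.27 and -1.91. The 3 tested genes closest to Camp over the arrays were Stfa3, a stefin of neutrophils (r = 0.947), Plac8 (0.943) and Sdhaf2 (0.930). Its correlation with Ltf was 0.511 and with Ngp 0.501.

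Lcn2 (lipocalin 2, another specific-granule protein that takes up bacterial siderophores) rose by 3.19 in control and 4.39 in KO cells at LPS 24 h. The control value includes the later slide's array, at 0.83 beside 2.83 to 4.01 on the others, so the 2 rises are not directly comparable. Yet its order over the arrays was not that of Camp. In KO cells at LPS 24 h Lcn2 was 3.72, 4.03, 3.89, 3.12 and 3.14, highest in replicates 1 to 3, where Camp was lowest. On the later slide's arrays Lcn2 was 0.23 and 0.83, below the other arrays of its groups, while Camp on them was 1.76 and 2.70, within the range of its groups.

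**Figure D3:**
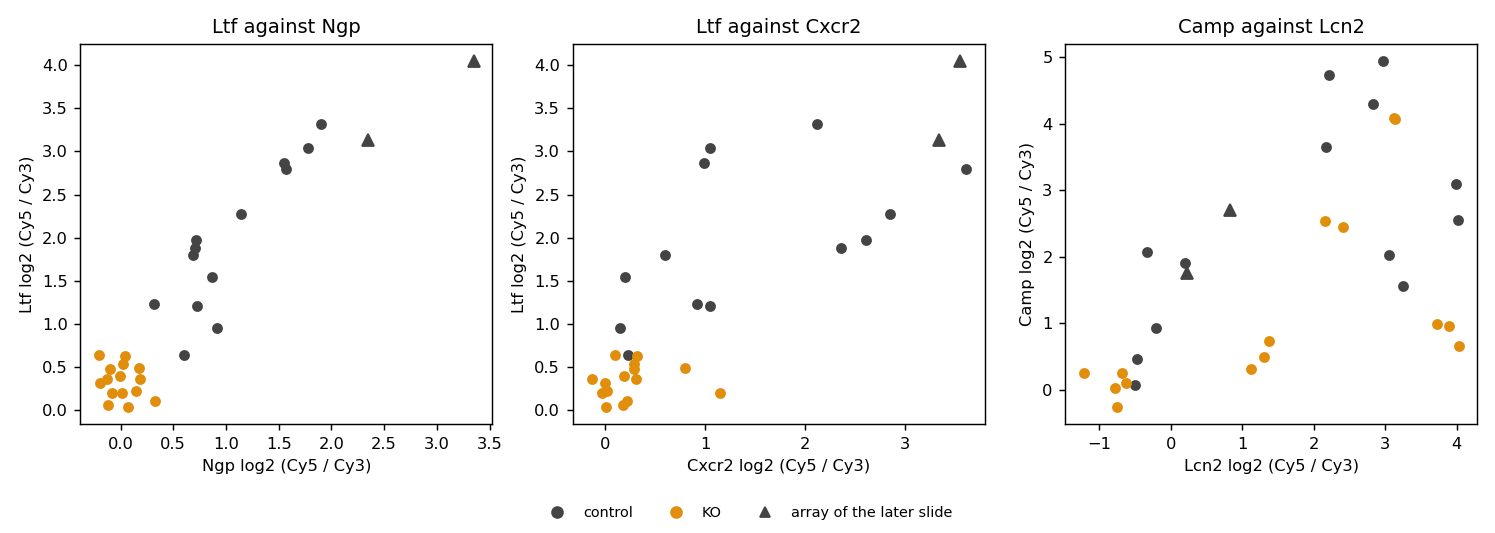
Log2 ratios on the 30 arrays of Ltf against Ngp, Ltf against Cxcr2 and Camp against Lcn2 (control dark, KO orange, later slide as triangles). Ngp and Ltf rise together in control cells, with the later slide's arrays highest in Ngp (3.35 and 2.35), while KO replicates 1 to 3 at LPS 24 h have high Lcn2 (3.72 to 4.03) and low Camp (0.65 to 0.99).

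The azurophil members gave little signal in either genotype. Mpo was 0.39 ± 0.08 (SD, n = 5) in unstimulated control cells, with group means of 0.10 to 0.60 in all, and its Cy5 signal was 33.0 to 352.5. The highest Mpo ratio, 1.54, was control replicate 2 at LPS 24 h, an array of the later slide. The gene closest to Mpo was Ctsg (cathepsin G, another azurophil protease, r = 0.832), which was also highest on that array, at 1.93. No Mpo difference passed the test; the largest by genotype was -0.29 (95% interval -0.64 to 0.06, adjusted p = 0.285). Prtn3 ratios were -0.10 to 0.40 and Elane ratios -0.24 to 0.36 over the 30 arrays, with Cy5 signals of at most 69.5 and 35.0. At this signal a difference in Elane was not detectable. Prtn3 averaged 0.28 in unstimulated KO cells and 0.15 in KO cells at LPS 24 h, and these arrays did not overlap. The exact permutation test gave p = 0.00794, not adjusted for the number of comparisons. With no filter on dim probes limma gave -0.13 (adjusted p = 0.316), and 3 of 5 arrays of each group were above background.

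In counts, KO minus control called 1 of the 6 tested members unstimulated (Ltf), 3 at LPS 6 h (S100a8, Ngp and Ltf) and 3 at LPS 24 h (S100a9, Ngp and Ltf), every one lower in KO cells. Over all 11242 genes, 14.1%, 12.1% and 15.4% were called in either direction in these comparisons, and the members' median differences were -1.25, -1.70 and -1.75 beside -0.04, -0.01 and -0.01 over all genes. These counts cover members that passed the filter and are a description. Ngp and Ltf passed it through control groups alone, Camp through control cells after LPS and KO cells at LPS 24 h. LPS 6 h against unstimulated called 0 members in either genotype, where 11.7% of all genes were called in control and 26.6% in KO cells. Without the later pair of arrays 2876 genes were called in control cells in place of 1312, and still 0 members (Camp 1.90, adjusted p = 0.0640). At an unadjusted p under 0.05 limma gave 1 member in control (Camp) and 0 in KO cells. LPS 24 h against unstimulated called Camp alone in each genotype, beside 12.3% of genes in control and 18.1% in KO cells. Unadjusted, limma gave 2 members under 0.05 in control cells, Camp and Ngp (0.75, adjusted p = 0.165), and 1 in KO cells, Camp.

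LPS 24 h against LPS 6 h called 0 members, with 5.5% of genes called in control and 7.74% in KO cells; unadjusted, 0 and 1 passed 0.05. The 1 was S100a9 in KO cells, at -1.59 (adjusted p = 0.198). Same-numbered KO arrays of these times deviated together, with correlations of 0.791 or more. With the replicate block the S100a9 difference passed (limma, adjusted p = 0.0234), but that block also covers groups whose arrays did not deviate together. The test of whether the LPS response differed by genotype called 0 members at 6 h (0.436% of genes) and 0 at 24 h (0.89%), and 0 at an unadjusted p under 0.05. The S100a9 response at 24 h differed by -1.52 (95% interval -3.64 to 0.60) and that of Camp by -0.35 (-2.38 to 1.68), so differences of several-fold in either direction were not detectable for Camp.

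**Figure D4:**
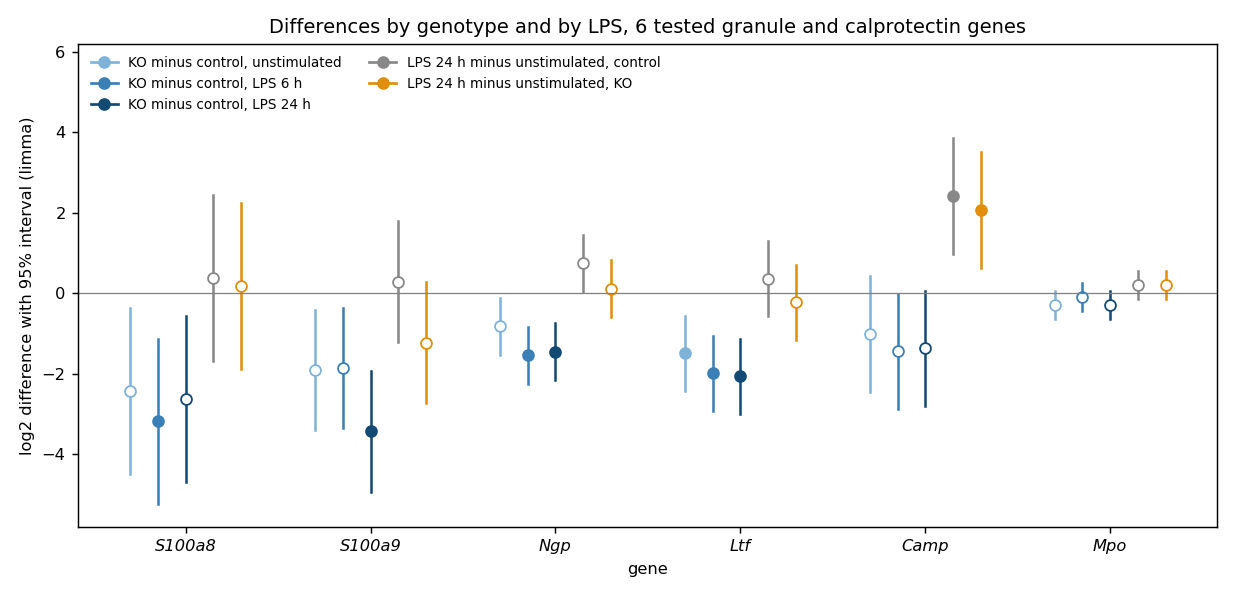
Log2 differences with 95% intervals from limma for the 6 tested genes, by genotype at each treatment (blues) and by LPS 24 h in control (grey) and KO cells (orange); filled points passed an adjusted p of 0.05. The genotype differences of all 6 genes lie below 0, and Camp alone has filled points above 0, at 2.43 and 2.08.

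Ordered by group mean, S100a8 ran from control LPS 6 h (4.77), control LPS 24 h (4.18) and unstimulated control (3.81) down to KO LPS 6 h (1.59), KO LPS 24 h (1.56) and unstimulated KO (1.39). The step from control to KO, 2.22, was the one neighbouring step larger than the pooled SD of its 2 groups. S100a9 had its step at the same place (1.54), and Ltf between unstimulated control and unstimulated KO (1.48). For Ngp the steps from control LPS 6 h to unstimulated control (0.69) and from there to KO LPS 24 h (0.70) exceeded the spread. For Camp it was the last step, from unstimulated control to unstimulated KO (1.01), and for Mpo the last as well, from KO LPS 6 h to unstimulated KO (0.19). No neighbouring groups of Elane or Prtn3 differed beyond their spread. The closest genes to S100a8 were Ada (r = 0.936), Melk (0.934) and Anapc15 (0.934), and to S100a9 Ccl24 (0.922), Melk (0.865) and Brca1 (0.856). The correlation of S100a8 with S100a9 was 0.838.

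Few other neutrophil markers passed the test by genotype. Of 19 surface and cytosol markers 14 had a named probe and 11 were tested; Ly6g, the defining surface antigen, has no named probe here. Called were 1, 1 and 3 of the 11 at the 3 treatments, beside 14.1%, 12.1% and 15.4% of all genes, so the first 2 counts are no more than the background. Lower in KO cells were Ifitm6 unstimulated (-2.13) and at LPS 6 h (-1.73), and Padi4 (-1.17, a histone-citrullinating enzyme), Cxcr2 (-1.80, with 1 of 5 KO arrays above background) and Ifitm6 (-1.27) at LPS 24 h. The list's median difference was -0.98, -0.68 and -1.12 at the 3 treatments. Its mean ratio over the tested markers was 1.60 to 3.25 on unstimulated control arrays and 1.06 to 1.91 on KO arrays, 2.36 to 3.39 and 1.90 to 3.09 at LPS 6 h, and 2.42 to 3.58 and 1.77 to 3.09 at LPS 24 h. Of the receptors in the list, Fpr1 and Fpr2 were above background on 30 of 30 arrays, Csf3r on 20, Cxcr2 on 16, Cxcr1 on 1 and Mrgpra2b on 0, and the secreted protein Retnlg was above it on 8.

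Cxcr2, the chemokine receptor of mature neutrophils, was measured beside Ltf because it defines these cells. It was 2.61, 0.92, 0.59, 3.61 and 2.36 in unstimulated control cells, 0.20, 0.15, 3.34, 1.05 and 0.99 at LPS 6 h, and 1.05, 3.55, 0.23, 2.12 and 2.85 at LPS 24 h. In KO cells it was 0.10 to 1.15 unstimulated and -0.14 to 0.32 after LPS, with 1 of 10 LPS arrays above background. The highest array of each LPS control group was again that of the later slide. Csf3r, the receptor of granulocyte colony-stimulating factor, did not follow: its ratio was 0.27 to 0.50 in unstimulated control and 0.34 to 0.86 in unstimulated KO cells, and it rose in both genotypes at LPS 24 h (0.50 and 0.63). The formyl peptide receptors Fpr1 and Fpr2 rose with LPS in both as well. The part that neutrophils or their RNA among the selected cells had in the member differences was not tested.

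Some markers of other marrow cells differed too, where 14.1%, 12.1% and 15.4% of all genes were called by genotype at the 3 treatments. Of 5 tested eosinophil markers Siglecf was lower in KO cells at all 3 treatments (-1.68, -2.34 and -2.61) and Prg2 after LPS. The fitted Prg2 differences, -1.30 and -1.22, are set against 0 and 1 of 5 KO arrays above background. The 3 others, the ribonucleases Ear1, Ear6 and Ear10, were above background on 30 of 30 arrays and differed by -0.24 to 0.17, none passing, so the list's median was -0.00, 0.04 and -0.24. Epx was above background on 4 of 30 arrays and Il5ra on 0. The mean of the eosinophil list was 3.79 to 4.81 on control and 2.48 to 4.00 on KO arrays. Of 6 measured granulocyte progenitor markers only Cd34 and Gfi1 were tested; both were lower in KO cells at LPS 6 h (-0.86 and -1.12) and 24 h (-1.45 and -1.16), and Fcnb was above background on 0 arrays. Among 4 tested mast cell and basophil markers Cd200r3 was lower at all 3 treatments (-1.13, -1.11 and -0.93; 2, 2 and 5 of 5 KO arrays above background). In that list 1, 1 and 2 were called, all lower, and the median was -0.25, -0.26 and -0.50. Of 7 tested monocyte markers the chemokine receptor Ccr2 was lower in KO cells at all 3 treatments (-3.40, -4.09 and -3.49) and Treml4 at LPS 24 h (-1.54). The monocyte list had 1, 1 and 2 called, and its median was -0.37, -0.44 and -0.32. Of 10 macrophage markers Marco (2.28) and Trem2 (0.93) were higher in unstimulated KO cells, and of 9 dendritic cell markers Ciita (-1.93), H2-Aa (-1.61) and H2-Eb1 (-1.52) were lower, with Cd74. Over the 3 treatments 2, 1 and 1 macrophage markers were called, all higher, and 4, 4 and 2 dendritic cell markers, all lower. The list medians were 0.48, 0.86 and 0.73 for macrophages and -0.66, -0.73 and -0.56 for dendritic cells. The part of any of these cells was not tested.

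The other granule proteins did not share one direction. Of all genes 14.1%, 12.1% and 15.4% were called by genotype at the 3 treatments, in either direction. Of 11 tested specific and gelatinase granule genes beside the members, 3 were lower and 2 higher in unstimulated KO cells. The lower ones were the gelatinase Mmp9 (-1.45), the membrane metalloproteinase Mmp25 (-1.51) and Adam8 (-1.56); Chil3, a chitinase-like protein (0.85), and Cybb (1.17) were higher. At LPS 24 h the same 3 genes were lower (-1.27, -1.88 and -1.49) and 3 were higher, Chil3 (0.54) and the NADPH oxidase subunits Cyba (0.68) and Cybb (1.28). Mmp8, the neutrophil collagenase, had ratios of 3.26 to 5.83 on all 30 arrays. Of 6 other azurophil genes tested, Cd63 (0.71) was higher in unstimulated KO cells, Lyz1 (0.58) at LPS 6 h and both at LPS 24 h (0.92 and 1.06). Lyz1 with Lyz2, and Chil3 with Chil4, are near-identical copies that one probe may not tell apart, so these values are uncertain.

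Some other S100 genes were lower in KO cells too. Of 9 other S100 genes tested, 2 were called lower in KO cells unstimulated, 5 at LPS 6 h and 1 at LPS 24 h. Of all genes 14.1%, 12.1% and 15.4% were called in either direction, so the count at LPS 24 h is no more than the background. S100a11 was lower at all 3 (-0.60, -1.08 and -1.03), S100a10, the annexin A2 partner, at the first 2 (-0.93 and -1.22), and S100a6 at LPS 6 h (-1.71). Of 7 tested receptors or partners of calprotectin, 2, 2 and 3 were called, each higher in KO cells, beside the same shares of all genes. The list's median was 0.66, 0.25 and 0.44. Cd33 was higher in KO cells at all 3 treatments (1.28, 1.41 and 1.23), Tlr4 after LPS (1.42 and 1.08) and Cd14 unstimulated and at 24 h (1.85 and 1.83). Cd36, Bsg, Emb and Ly96 did not pass. The differences after LPS include the later slide's arrays. On control replicate 2 at LPS 24 h the list's mean ratio was 0.93, beside 1.94 to 2.21 on the other arrays of that group.

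Of 7 transcription factors of granule genes, Runx1 was higher in unstimulated KO cells (1.23) and Gfi1, also counted among the progenitor markers, lower after LPS; Cebpe has no named probe here. Cebpd was lower at LPS 24 h than unstimulated in both genotypes (-0.71 and -0.80). Cebpa passed in KO cells (-1.59) and not in control cells (-1.27); the test of that difference between genotypes gave -0.32 (adjusted p = 0.911). Of 6 tested inhibitors of granule proteases, Serpina3f (-1.75, with 1 of 5 KO arrays above background), Serpinb6b (-2.63) and Serpinb9 (-1.92) were lower and Serpinb6a (1.27) higher in unstimulated KO cells, members of families with close copies. Slpi, the secreted inhibitor of neutrophil elastase, rose at LPS 24 h by 2.21 in control and 2.17 in KO cells, alongside Camp, while Elane itself stayed at background.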

How the data were processed

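RNA of 30 samples was hybridised against one universal mouse reference RNA on 2-colour Agilent arrays without dye swaps; per the labels, Cy5 holds the sample. Spot intensity values and flags are deposited as scanned, by the Feature Extraction software of the scanner (version 10.7.3.1, per the file headers), and the scanner software's log10 ratios stand beside them. A deposited value table holds log2 ratios made by the authors with limma, per the submitters' processing notes; its genome build is not stated in those notes.

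Median intensities were background-corrected (normexp, offset 50; local backgrounds marked non-uniform were set to the array's median) and normalised by loess within each array with limma 3.58.1 in R 4.3.3. The 1639 control spots had weight 0, flagged outlier spots were dropped and spots of a probe averaged; the result correlated with the deposited log2 table at r = 0.999885 to 0.999998. Of 41174 probes, 22951 were named through their accession in RefSeq (GRCm38.p6). A gene's probe with the brightest Cy5 signal represents it. One mean per group was fitted over all 30 arrays (24 residual degrees of freedom), and 11 comparisons were tested with Benjamini-Hochberg adjustment over 11242 genes, called at an adjusted p of 0.05. Fits were tested on simulated data. The number of arrays limits the precision.

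A bound ("at least N-fold") sets each dim array at the higher of its lowest signal well above background and the probe's own. It compares group means, the later slide's arrays included, and is open to dye bias. Exact permutation tests are two-sided. Replicate numbers pair samples only where each same-numbered pair of arrays correlates over 0.1 in deviations from group means, as in 6 of 15 pairs of groups; over all 75 pairs the correlation was -0.336 to 0.875, median 0.555. In the comparisons tested this held for LPS 24 h against unstimulated in control cells, and for LPS 6 h against unstimulated and LPS 24 h against 6 h in KO cells.

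The members and gene lists were chosen with earlier results of these data known. Named are all 8 members, up to 3 called genes per list in the direction most took and 1 in the other, neutrophil markers by level, and the 3 genes closest to each member. Lcn2, Mmp8, Ctsg, receptors and other list genes given by level or flag, and second genes in the less common direction, were chosen after their values were seen. Alternatives changed the background, normalisation, reference channel, filter, block, samples fitted and single arrays.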

Additional observations from a re-analysis of the deposited data

Results flagged for a closer look

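In KO cells at LPS 24 h the Mpo ratio of replicate 5, 0.54, lay above the other 4 arrays, the nearest of which was at 0.28. The gap was 0.789 of the group's range, above the critical 0.71 of Dixon's test for 5 values. This was 1 of 48 groups examined, and chance marks about 1 in 20.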

How the results depend on the processing

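Of 834 member differences recomputed under the alternatives chosen beforehand, other than single arrays left out, 723 kept both their sign and their side of the threshold; 33 gained a call, 14 lost one, and 64 changed sign, most of them small differences that were called neither way. With single arrays left out, 682 of 780 kept sign and side, 4 gained a call, 22 lost one and 72 changed sign, none of them a difference called in either fit. The 10 sign changes that involved a call all came with slide as a fixed block: at LPS 24 h KO minus control, Camp 4.472 and Ltf 0.6152; LPS 24 h against unstimulated, Camp -0.8877 and Ltf -1.806 in control and Ltf 2.9 in KO cells; LPS 24 h against 6 h in KO cells, Ltf 2.994 and S100a8 9.93; and the genotype difference of the 24 h response, Camp 9.831, Ltf 4.705 and S100a8 13.29. Among uncalled differences of at least 1, slide fixed also turned S100a8 KO minus control at LPS 24 h (4.706), Camp at LPS 6 h in control cells (-0.1982), and S100a9 at 24 h in KO cells against unstimulated (2.64) and 6 h (2.846) and in the response difference (2.972), and the scanner's log ratios turned S100a9 KO minus control at LPS 6 h (0.4948). Members called lower in KO cells numbered 1 unstimulated, and 2 with Cy5 alone or the compared groups only, 0 with backgrounds as scanned or median centring, 3 with the replicate block or the scanner's log ratios, and 4 with slide fixed. At LPS 6 h and at LPS 24 h the 3 calls became 5 with the replicate block and 1 with slide fixed. A term for replicates 1 to 3 against 4 and 5 gave 4, 5 and 5; chosen after seeing the data, that term on Cy5 alone gave 3 and 5 at the first 2 treatments, and replicates 4 and 5 alone gave 4 unstimulated. For LPS 24 h in control cells, Cy5 alone gave 0 in place of 1. In KO cells the 1 became 0 with the compared groups only, no filter or slide random, 2 with the scanner's ratios and 3 with slide fixed. Where 0 members were called, 1 was called for LPS 6 h in control cells (replicate block, either fit of the term, either subset of replicates), for LPS 6 h in KO cells (the same without replicates 1 to 3, and scanner ratios), for 24 h against 6 h in control (replicates 1 to 3) and in KO cells (replicate block, term, scanner ratios, replicates 4 and 5; 3 with slide fixed), and for the 24 h response difference (replicates 1 to 3; 3 with slide fixed). With single arrays left out the counts were 0 to 2, 2 to 4 and 3 to 4 for KO minus control and 0 to 1 for LPS 24 h in each genotype. Over all genes, 1586, 1363 and 1732 called by genotype became 934, 800 and 1000 with median centring, 3339, 2726 and 3045 with the replicate block, and 5692 and 5071 unstimulated and at 24 h with slide fixed. Without the later slide's arrays, LPS 6 h in control cells called 2876 genes in place of 1312. Median centring moved the median of all genes by over 0.1 for LPS 6 h in KO cells, from 0.02 to -0.10. The cause of these changes was not tested. Pairing is not given by the labels outside the comparisons where arrays deviated together, so the block's other calls rest on a shared number alone. Dim signal limits Elane, Prtn3 and the KO values of Ngp and Ltf.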
